A study of Salmo salar with 37 samples.

Results

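The 36 probes described here are those of the 1974 probes with a description in the lists of the study whose description names tubulin, dynein, sperm, testis, recombination or DNA repair. The word search that chose them held 18 terms for germ cells, meiosis, cilia and flagella, of which 6 found a probe. The other 12 terms, among them synaptonemal, piwi, nanos, dazl, tektin and radial spoke, found none among the described probes. The set is therefore named by its genes, as tubulin, dynein, recombination and sperm-named transcripts, and not as a germ cell, meiosis or cilium program. It holds 18 probes for tubulin chains (12 alpha and 6 beta), 1 for a tubulin folding cofactor, 4 for dyneins, 3 for recombination proteins, 7 for sperm-named proteins, 2 for polyamine synthases and 1 for a creatine kinase. Spermidine and spermine synthase entered only because their names contain the letters of sperm.

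Alpha and beta tubulin pair into dimers that build microtubules, the fibers of the mitotic and meiotic spindle and the core of cilia and sperm tails. Dyneins are motors that move along microtubules, and recombination proteins repair double-strand breaks in DNA, in dividing cells as well as in meiosis. In a testis at the onset of puberty, single spermatogonia and Sertoli cells divide more often, and both cell types need spindles and DNA repair.

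Testis RNA of 37 Atlantic salmon males was hybridized to one-color oligonucleotide arrays, 1 male per array, and the Cy3 brightness of a spot stands for how much RNA bound to that probe. The 21 males of the restricted ration (RR) were fed the same daily amount of dry feed as the others but only on some days of the week, and the 16 males of the normal ration (NR) were fed every day to appetite. All were post-smolts moved to sea water in May, divided in September between a pair of sea cages and kept under ambient light. According to the study, males whose testes held type B spermatogonia, or groups of germ cells dividing in step, were left out. Germ cells beyond type B spermatogonia, which would include meiotic cells, were not recorded in the testes collected. The 2 rations were held in separate cages, so that cage and ration cannot be told apart. According to the paper, both rations included immature as well as maturing males, so each ration group is a mixture of the statuses. The labels used here give the ration of each male but neither its maturational status nor its sampling date, and comparisons by these were not analysed here. In levels and spreads by ration, the part of ration and the part of this mixture were not separated here, and the ration labels alone cannot separate them.

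The study chose the described probes for differences between maturing and immature males or between rations, and the word search took its probes from those lists. Of the 36 probes, 15 were listed only for maturation, 11 for both maturation and ration, and 10 only for ration. For the 21 probes listed for a ration contrast, the difference between RR and NR males is a description with no test, since a contrast of rations chose them. The 15 listed only for maturation were absent from the study's ration lists on these same arrays, so their ration difference is given as a description too. The listing is by probe and not by gene. Each of the 7 descriptions with a pair of probes had 1 probe listed only for maturation and the other only for ration. All values are log2 of the background-corrected signal after quantile normalization, in which a step of 1 is a doubling, and levels of different probes are not compared. All 36 probes passed the filter on low signal, and 35 of them were well above background on every array. The remaining one, probe CUST_36091_PI417904088 for tubulin alpha-2/alpha-4, was well above background on 20 of the 21 RR and all 16 NR arrays. In a whole testis, fewer cells of a type and less RNA per cell cannot be told apart.

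Arrays were scanned on 2 days, with 6 RR and 11 NR males on the first and 15 RR and 5 NR males on the second. Between 34084 and 43287 probes per RR male and between 34857 and 41394 per NR male were well above background. RR testes had lower signal for 5 of 7 erythrocyte probes (hemoglobins and the erythroid 5-aminolevulinate synthase), at an adjusted p below 0.01 in limma with a fold change above 1.5, against 0.167% of all probes. Hemoglobin alpha probe CUST_23970_PI417904088 was lower without passing (log2 fold change -1.33, adjusted p in limma 0.0179). Hemoglobin alpha probe CUST_17703_PI417904088 went the other way, with a log2 fold change of 0.05. These 7 probes, like the other marker probes below, came from the study's lists, which chose them on these same arrays. The count is therefore a description and not a test. With scan day as a block 0 of 7 passed (lowest adjusted p in limma 0.0134), while the median log2 fold change was -1.04, against -1.09 without the block. Their summed log2 level was 18.13 in the median RR male (16.97 to 19.50) and 19.08 in the median NR male (18.42 to 19.50). The part of blood cells in the ration differences below was not tested.

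Among the alpha tubulins, most probes were far higher in the same few RR males than in any NR male. Tubulin alpha-1A had a lowest, median and highest log2 signal of 12.76, 13.77 and 16.41 in RR males, against 12.91, 14.11 and 14.66 in NR males. RR males 17 to 21 had 15.83, 16.41, 16.28, 16.21 and 16.17, and the next highest of all males was NR male 16 at 14.66. The 5 RR males thus lay at least 1.17 above every other male, while the median RR male lay 0.34 below the median NR male. Tubulin alpha-1B (11.25, 12.48 and 14.59 in RR males, against 12.08, 12.79 and 13.25 in NR males) and tubulin alpha-1C (12.19, 12.70 and 15.17 in RR males, against 12.35, 13.22 and 13.70 in NR males) had the same form. Tubulin alpha-1 ran over 10.96, 11.83 and 14.14 in RR males, against 11.39, 11.83 and 12.55 in NR males, with equal medians and 6 RR males above the highest NR male. Tubulin alpha-2/alpha-4 probe CUST_36091_PI417904088 had 4.99, 6.54 and 8.87 in RR males, against 5.73, 6.44 and 7.25 in NR males, and probe CUST_15763_PI417904088 had 8.59, 9.29 and 11.24 in RR males, against 8.69, 9.45 and 10.11 in NR males. Tubulin alpha-4A probe CUST_17788_PI417904088 had 12.76, 13.14 and 14.50 in RR males, against 12.92, 13.22 and 13.67 in NR males, and probe 8_2_9_5 had 13.64, 14.09 and 15.49 in RR males, against 13.94, 14.13 and 14.47 in NR males. For each of these 4 probes RR males 17 to 21 were the 5 highest of all males, and 7 RR males lay below the lowest NR male for probe 8_2_9_5.

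Other alpha tubulin probes departed from this form. The probe for the testis-specific alpha chain had a lowest, median and highest signal of 9.34, 10.78 and 11.94 in RR males, against 10.86, 11.35 and 12.19 in NR males. No RR male exceeded the highest NR male, and 12 of 21 RR males lay below the lowest NR male. The alpha tubulin family probe, described by a conserved domain only, ran over 4.35, 7.63 and 8.92 in RR males, against 7.06, 7.68 and 8.14 in NR males. Its lowest value belonged to RR male 16, and 4 RR males exceeded all NR males.

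Of the beta tubulins, tubulin beta-1 had a lowest, median and highest signal of 13.83, 14.41 and 16.69 in RR males, against 14.03, 14.81 and 15.21 in NR males. RR males 17 to 21 had 15.94, 16.65, 16.69, 16.61 and 16.39, each above all other males. Tubulin beta-2C probe CUST_25475_PI417904088 had 14.29, 14.81 and 17.19 in RR males, against 14.79, 15.26 and 15.86 in NR males, with RR males 17 to 21 highest and 9 RR males below the lowest NR male. Probe CUST_4631_PI417904088 of the same description had 13.13, 13.78 and 14.70 in RR males, against 13.36, 13.84 and 14.77 in NR males, and no RR male exceeded the highest NR male. The tubulin beta chain probes ran over 10.60, 11.68 and 13.19 in RR males, against 10.83, 11.68 and 12.11 in NR males, for CUST_11703_PI417904088, and over 10.54, 11.53 and 13.12 in RR males, against 10.71, 11.59 and 11.94 in NR males, for CUST_15892_PI417904088. For both of them 6 RR males lay above every NR male. Tubulin beta-3, a form best known from neurons in mammals, had 10.54, 11.80 and 12.86 in RR males, against 11.42, 11.68 and 12.12 in NR males. It was one of the few probes with a higher median in RR males, by 0.12.

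**Figure D1:**
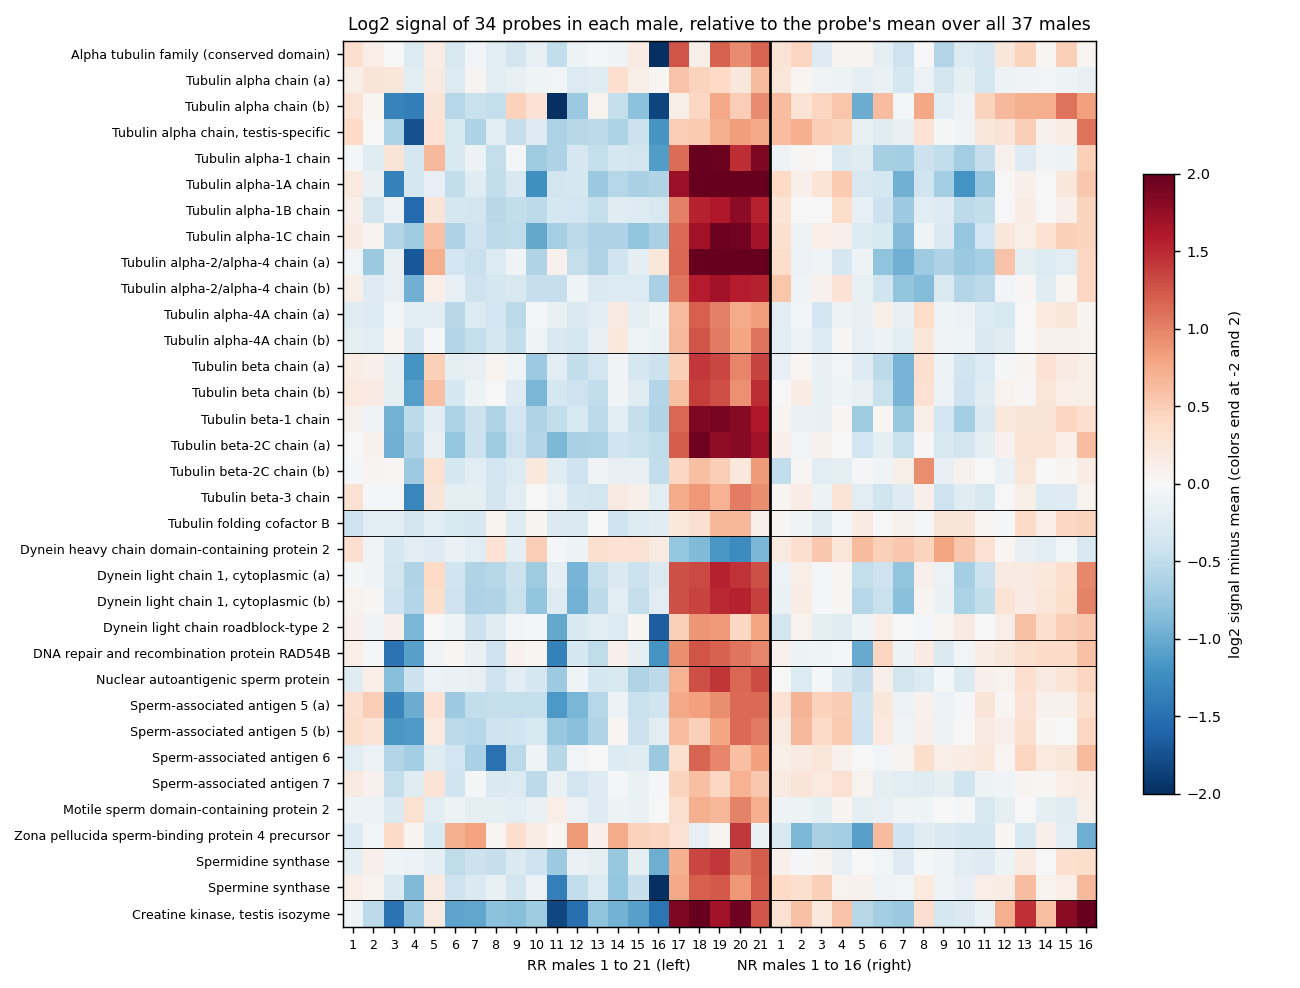
Log2 signal of 34 of the 36 probes (rows, grouped by gene family; a and b mark probes with one description) in each male (columns, RR males left of the line, NR males right), as the difference from the probe's mean over all 37 males; colors end at -2 and 2. RR males 17 to 21 form a red band through most rows, dynein heavy chain domain-containing protein 2 is blue in the same males, and creatine kinase is also red in NR males 13, 15 and 16.

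Probes that share a description gave a check on the values, since 7 descriptions had a pair of probes. Both probes of dynein light chain 1 lay on the same side of their median in 37 of 37 males. The count was 35 for the tubulin beta chain, 33 for sperm-associated antigen 5, 31 for tubulin alpha-2/alpha-4, 31 for tubulin alpha-4A and 27 for tubulin beta-2C. The exception was the description tubulin alpha chain, whose probes lay on the same side in 17 of 37 males. Its probe CUST_25248_PI417904088 had a lowest, median and highest signal of 13.22, 13.60 and 14.13 in RR males, against 13.12, 13.38 and 13.74 in NR males. Its other probe, CUST_27577_PI417904088, had 7.35, 9.78 and 10.68 in RR males, against 8.75, 10.32 and 10.83 in NR males. The ration differences of the pair were 0.22 and -0.70 on the log2 scale. Tubulin chains are near-identical between gene copies, and which copies a probe binds was not determined here.

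Tubulin folding cofactor B, which helps to assemble and take apart the tubulin dimer, spanned 1.08 on the log2 scale between its lowest and its highest male. It had a lowest, median and highest signal of 12.43, 12.62 and 13.51 in RR males, against 12.61, 12.90 and 13.30 in NR males, and 10 RR males lay below the lowest NR male.

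Dynein light chain 1 had the form of most tubulins, and a heavy chain probe went the other way. Dynein light chain 1, a small subunit of the cytoplasmic motor that also binds other proteins, had 12.40, 13.04 and 14.86 in RR males, against 12.53, 13.33 and 14.28 in NR males, by probe 2_4_21_20. Its other probe, 10_4_2_3, had 12.44, 13.12 and 14.92 in RR males, against 12.54, 13.39 and 14.37 in NR males. Dynein light chain roadblock-type 2 had 6.02, 7.63 and 8.56 in RR males, against 7.31, 7.73 and 8.27 in NR males. Dynein heavy chain domain-containing protein 2 had 9.75, 10.88 and 11.51 in RR males, against 10.701, 11.33 and 11.81 in NR males. RR males 17 to 21 had 10.24, 10.13, 9.85, 9.75 and 10.10 for it, the 5 lowest of all 37 males. It was the only one of the 36 probes for which these males were the 5 lowest, and 2 of 21 RR males exceeded the NR median.

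RAD54B, a DNA translocase of the recombination machinery, had a lowest, median and highest signal of 8.37, 9.82 and 11.11 in RR males, against 8.85, 9.97 and 10.43 in NR males. Its 5 highest males were RR males 17 to 21, and 4 other RR males lay below the lowest NR male.

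The sperm-named probes are a mixed group, because they were gathered by a word in their names. Nuclear autoantigenic sperm protein is a histone chaperone present in many dividing cells, and had 11.58, 12.22 and 13.85 in RR males, against 11.96, 12.42 and 12.85 in NR males. Sperm-associated antigen 5, a spindle protein also called astrin, had 10.18, 11.06 and 12.64 in RR males, against 11.11, 11.67 and 12.18 in NR males, by probe CUST_15035_PI417904088, and 12 of 21 RR males lay below the lowest NR male. Its probe CUST_19338_PI417904088 had 9.46, 10.30 and 11.76 in RR males, against 10.20, 10.76 and 11.28 in NR males, with 8 RR males below the lowest NR male. Sperm-associated antigen 6, a protein of the central apparatus of motile cilia and sperm tails in mammals, had 6.76, 8.01 and 9.42 in RR males, against 8.20, 8.42 and 8.88 in NR males. For it, 15 of 21 RR males lay below the lowest NR male and 3 above the highest. Sperm-associated antigen 7 had 11.71, 12.19 and 12.92 in RR males, against 11.83, 12.26 and 12.53 in NR males. Motile sperm domain-containing protein 2, an endoplasmic reticulum membrane protein, had 9.09, 9.27 and 10.36 in RR males, against 9.05, 9.28 and 9.49 in NR males.

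Zona pellucida sperm-binding protein 4, known as an egg coat protein, followed none of the other probes. It had a lowest, median and highest signal of 7.31, 7.76 and 9.03 in RR males, against 6.54, 7.30 and 8.26 in NR males. All 21 RR males lay above the NR median, and its 5 highest males were RR males 6, 7, 12, 14 and 20. The study listed it for ration in the 2 contrasts of all males and of immature males, so that its difference is given below as a description.

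The polyamine synthases make spermidine and spermine, small cations that growing cells accumulate. Spermidine synthase had 10.15, 10.94 and 12.54 in RR males, against 10.87, 11.08 and 11.48 in NR males. Spermine synthase had 4.94, 7.37 and 8.86 in RR males, against 7.47, 7.78 and 8.29 in NR males, with 11 RR males below the lowest NR male and 5 above the highest.

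Creatine kinase, testis isozyme, which in trout is the creatine kinase of testis and sperm and passes phosphate between ATP and creatine, was among the most variable of the set. It had a lowest, median and highest signal of 11.21, 12.24 and 15.15 in RR males, against 12.30, 13.36 and 15.10 in NR males, and 12 RR males lay below the lowest NR male. Its values in RR males 17 to 21 were 14.90, 15.15, 14.72, 14.99 and 14.31. Among NR males, male 16 had 15.10, male 15 had 14.84 and male 13 had 14.50, so that for this transcript the high values were not confined to one ration.

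**Figure D2:**
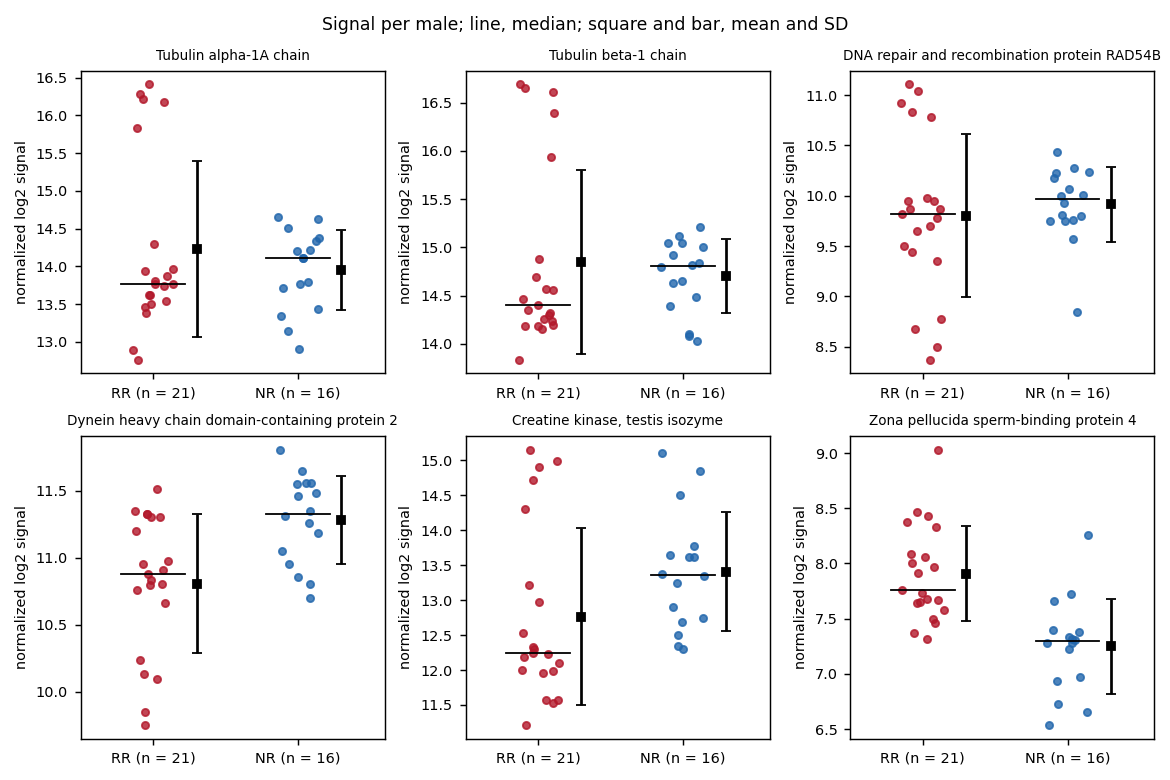
Normalized log2 signal of 6 transcripts in each male (points; RR males left, n = 21, NR males right, n = 16), with the median (line) and the mean and SD (square and bar). For tubulin alpha-1A, tubulin beta-1 and RAD54B, 5 RR points stand above all NR points while the RR median is below the NR median; in dynein heavy chain domain-containing protein 2 the 5 lowest points are RR males, and for zona pellucida sperm-binding protein 4 all 21 RR points lie above the NR median.

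Across the set, the same males stood at the top. The 5 highest males were RR males 17 to 21 for 22 of 36 probes, against 4.47% of all 40684 probes tested. No NR male was among the 5 highest for 26 probes, and how often this holds over all probes was not counted. By family these 5 males led 8 of 12 alpha tubulin, 3 of 6 beta tubulin, 2 of 4 dynein, 4 of 7 sperm-named and 2 of 2 polyamine probes, and neither tubulin folding cofactor B nor creatine kinase. The other 3 of the 22 include RAD54B. The gap between the fifth and the sixth male, whichever males these were, had a median of 0.19 over the 36 probes and was largest for tubulin alpha-1A. Averaged over the 36 probes, RR males 17 to 21 deviated from the mean of all males by 0.75, 1.09, 1.12, 1.07 and 1.07, followed by NR male 16 with 0.39 and by NR males 15 and 13 with 0.21 each. RR male 4 was lowest with -0.71, then RR male 16 with -0.65. RR male 19 was scanned on the first day and RR males 17, 18, 20 and 21 on the second. Maturation chose 26 of the probes, and 20 were listed for a contrast of RR with NR males among maturing males. RR males standing high or apart in these probes may therefore restate what chose them, and the pattern has no test. These males were noticed by their values, so the counts and levels given for them as a set are descriptions. They were not a group in any fit, and no fit was made to leave them out together. The replicate block reported at the end does take them out of its ration difference.

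Summed signal of connective tissue markers also stood high in these males, as it did in some NR males. The summed log2 signal of 3 collagen probes was 14.31, 15.26, 14.98, 14.50 and 14.72 in RR males 17 to 21. Over all males it ran from 11.88 to 15.26 in RR males (median 12.83) and from 12.10 to 14.68 in NR males (median 13.63). NR males 13 to 16 had 14.33, 14.36, 14.68 and 14.63, each above RR male 17. The sum was set mainly by collagen alpha-1(IV), with a mean of 13.13 in RR and 13.65 in NR males. Collagens alpha-2(I) and alpha-3(VI) averaged 8.25 and 5.68 in RR males, and 8.26 and 5.74 in NR males. Another sum took 3 probes. A pair for 3 beta-hydroxysteroid dehydrogenase served as Leydig cell markers, and the remaining one is described only by an insulin-like growth factor domain. The paper describes Igf3 as made by Sertoli cells and Insl3 by Leydig cells, so the cell type of the domain probe is open. The summed log2 signal ran from 10.52 to 12.61 in RR males and from 10.98 to 13.16 in NR males. RR males 17 to 21 had 12.11, 12.61, 12.41, 12.18 and 12.31. The 3 probes did not move together: log2 fold changes were -0.66 and -0.58 for the 3 beta-hydroxysteroid dehydrogenase probes and 1.33 for the insulin-like growth factor probe, none of them called. The insulin-like growth factor probe was dim, with a mean of 6.01 in RR and 4.68 in NR males. It passed the background criterion in 18 RR and 13 NR males. Summed erythrocyte signal in RR males 17 to 21 was 18.07, 18.37, 18.38, 18.13 and 17.85, within the range of the other RR males. The part of connective tissue and Leydig cells in the levels of the 36 probes was not tested.

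RR males varied more than NR males. The SD among RR males had a median of 0.71 over the 36 probes (0.28 to 1.27), and that among NR males a median of 0.30 (0.11 to 0.85). The SD was higher in RR males for 36 of 36 probes, as it was for 91.5% of all probes tested, for which the median SD was 0.43 in RR males and 0.25 in NR males. From the lowest to the highest male the probes spanned a median of 2.52 on the log2 scale, against 1.78 over all probes.

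Means and medians of the rations differed in direction for many probes. The RR mean was above the NR mean for 24 of 36 probes, against 46% of all probes tested, yet the RR median was below the NR median for 31, as it was for 54.1% of all probes tested. Both held for 19 of the 36, and for 10.2% of all probes. The rations overlapped in their range for all 36 probes, and how often they overlap over all probes was not counted. The median of the 36 log2 fold changes was 0.05, against -0.02 over all probes tested. It was 0.16 over the 18 tubulin chains (15 higher, 3 lower in RR), -0.04 over the dyneins and 0.0044 over the sperm-named proteins.

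**Figure D3:**
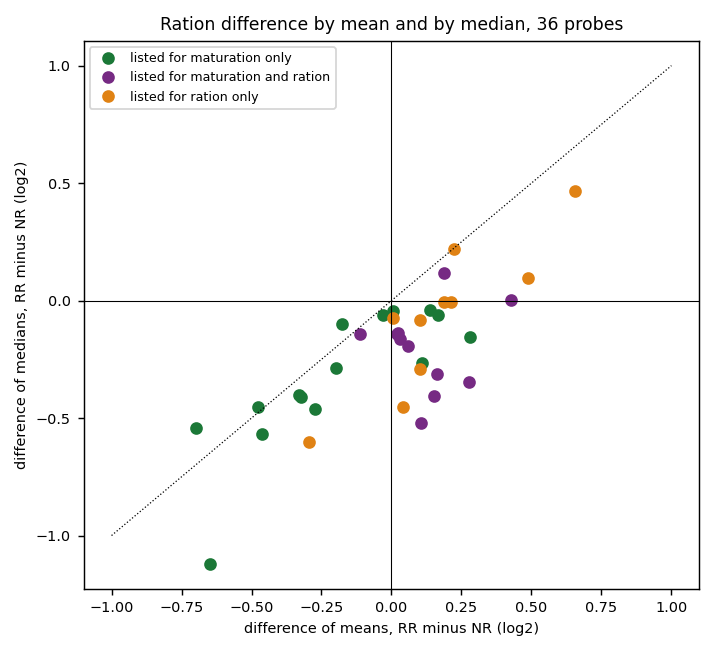
Difference between RR and NR males by the mean (horizontal axis) and by the median (vertical axis), both RR minus NR on the log2 scale, for the 36 probes, colored by the contrast for which the study listed them; the dotted line marks equal values. Most points lie below the dotted line, and 19 probes sit to the lower right of the 0 lines, with a higher mean and a lower median in RR males.

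Differences between rations were tested by limma over 40684 probes, and a probe was called at a Benjamini-Hochberg adjusted p below 0.01 with a fold change above 1.5. Of the 36 probes 1 was called, against a background of 0.256% of all probes (0.0885% higher and 0.167% lower in RR males). It was zona pellucida sperm-binding protein 4, with a mean of 7.91 ± 0.43 in RR males and 7.25 ± 0.43 in NR males (SD, n = 21 and 16). Its log2 fold change was 0.66 (SE 0.14), or 1.58-fold, with an adjusted p of 0.0089, and a ration contrast chose this probe, so the count is read as a description. With scan day as a block its log2 fold change was 0.73 and its adjusted p 0.0187, above the threshold. It was called in 13 of the 37 fits that left out 1 male each, with log2 fold changes between 0.60 and 0.72.

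At an unadjusted p below 0.05 in limma, 2 of the 36 probes were higher and 5 lower in RR males, against 6.29% and 10.1% of all probes. Both higher probes were listed for ration only, so a ration contrast chose them. The counts are not far from the shares over all probes and are given as a description. The 5 with lower signal were a tubulin alpha chain, the testis-specific tubulin alpha chain, tubulin folding cofactor B, dynein heavy chain domain-containing protein 2 and sperm-associated antigen 6. All 5 belong to the 15 probes listed only for maturation, which as probes the study's ration contrasts did not pick. For the tubulin alpha chain, the other probe of that description was listed for ration. The lack of calls among the 15 is part of how they were set apart and is not read as a test.

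The values of these 15 probes differed between rations as follows. Dynein heavy chain domain-containing protein 2 had a mean of 10.81 ± 0.52 in RR males and 11.29 ± 0.33 in NR males (SD), a log2 fold change of -0.48 (SE 0.15). The difference was -0.28 on the first scan day and -0.65 on the second. Tubulin alpha chain probe CUST_27577_PI417904088 averaged 9.44 ± 0.88 in RR males and 10.13 ± 0.51 in NR males (SD), a log2 fold change of -0.70 (SE 0.24). Creatine kinase, testis isozyme, averaged 12.76 ± 1.27 in RR males and 13.41 ± 0.85 in NR males (SD), a log2 fold change of -0.65 (SE 0.36). Both larger differences thus went with a spread among males that exceeded them in RR males. Log2 fold changes were -0.46 (SE 0.18) for testis-specific tubulin alpha, -0.33 (SE 0.16) for sperm-associated antigen 6 and -0.20 (SE 0.09) for tubulin folding cofactor B. The median over the 15 was -0.20, and 10 of them were lower in RR males.

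**Figure D4:**
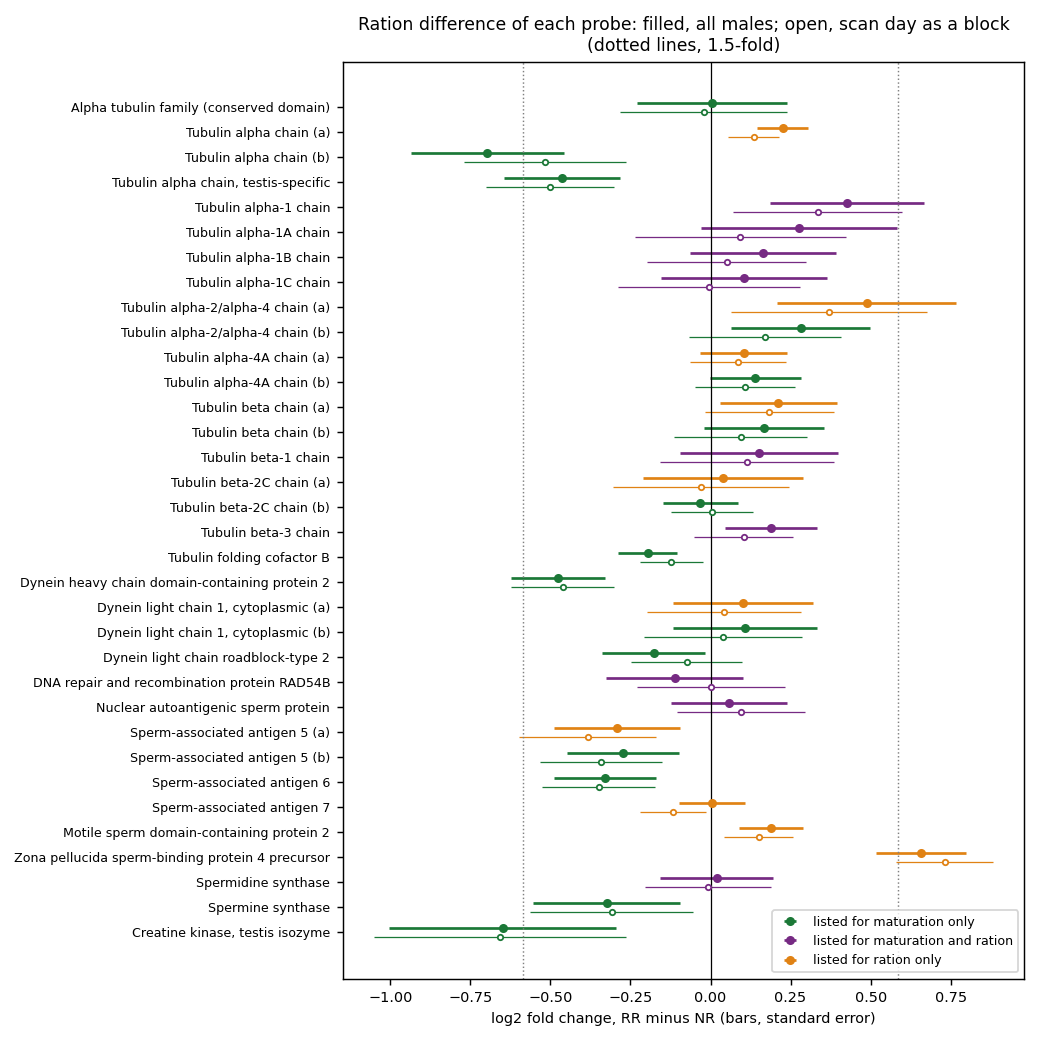
Log2 fold change of 34 of the 36 probes, RR minus NR, from limma (filled points, all 37 males; open points, with scan day as a block; bars, standard error), colored by the contrast for which the study listed the probe; dotted lines mark 1.5-fold. Zona pellucida sperm-binding protein 4 lies farthest to the right at 0.66, a tubulin alpha chain (-0.70) and creatine kinase (-0.65) farthest to the left, and most other bars cross or come close to 0.

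When ration was in the model, 0 of the 36 probes were called for scan day, against 0.536% of all probes. At that share, a count of 0 in 36 probes says little. Between scan days, 25 of the 36 were higher and 11 lower on the second day, with a median log2 difference of 0.09. Over all 40684 probes, 20255 were higher on the second day, with a median of -0.0011. With scan day as a block, 0 of the 36 were called for ration, against 0.0221% of all probes, and 4 of 36 had an unadjusted p below 0.05, against 10.5% of all probes. Within the first scan day the RR mean was higher for 12 and lower for 24 of the 36 probes, with a median log2 fold change of -0.11. Over all 40684 probes it was higher for 18696, with a median of -0.014. Within the second day it was higher for 25 and lower for 11 of the 36, with a median of 0.13. Over all probes it was higher for 18954, with a median of -0.023. RR males 17, 18, 20 and 21, high in most of the 36 probes, were scanned on the second day and RR male 19 on the first. The direction of the small median difference in this set was not the same on both scan days. Within either day 0 of the 36 probes were called, as were 0 of all probes, and the cause was not tested.

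Partners of these genes were taken by description from the same study lists, which chose them on these males, so their counts are descriptions. Over all probes tested, 0.256% were called, and 46% were higher in RR males without a threshold. At that share of calls, a count of 0 in lists this short says little. Of 11 probes for the T-complex and prefoldin chaperones that fold tubulin, 0 were called and 10 were higher in RR males (median 0.17). Of 14 kinesins, the other motors of microtubules, 0 were called (median -0.03), and the same held for 11 microtubule-associated proteins (median -0.05) and 31 DNA replication and repair probes (median -0.03). Neither of 2 further polyamine enzymes was called, with ornithine decarboxylase 1 at -0.24 and S-adenosylmethionine decarboxylase at -0.11, nor were 2 other creatine kinases. The probe for the cohesin subunit SMC1B (structural maintenance of chromosomes protein 1B), which holds sister chromatids together in meiosis, was called. It averaged 14.38 ± 0.43 in RR males and 14.98 ± 0.33 in NR males, a log2 fold change of -0.60 (SE 0.13, adjusted p in limma 0.0087), and its adjusted p rose to 0.0656 once scan day was a term of the model.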

How the data were processed

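One-color arrays of testis RNA from 37 males (21 RR, 16 NR) were used, with rations from the sample titles because another label field calls every ration normal. The authors deposited spot intensity from Agilent Feature Extraction 10.7.1.1, background-corrected but not normalized between arrays. They also deposited a table of log2 values, which equaled log2 of the background-subtracted intensity of single spots. From the intensity files, log2 processed signal was quantile normalized in limma 3.58.1 (R 4.3.3). Spots of controls were dropped, and 581 spots marked as outliers were set to missing. A probe was kept if well above background in 16 or more males (40684 of 43689). RR and NR males, separate fish, were compared by lmFit and eBayes with Benjamini-Hochberg adjustment over all kept probes. Probe descriptions are those of the study's lists. All 36 probes could be named, as could probes of the companion and marker lists. The members and lists were chosen with earlier results of these data known. Functions were tested on simulated data. Alternatives were another scaling, background correction, filter or threshold, scan day or slide as a block, each scan day alone, the replicate number as a block, the methods' t-test and leaving out each male. The number of arrays limits the precision. The values of 2 of the 36 probes are not reported here one by one. Probe sequences and genome positions were not used here.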

Additional observations from a re-analysis of the deposited data

How the results depend on the processing

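The count of 1 called probe of 36 held with 75th percentile scaling, both other filters, an adjusted p of 0.05 and no fold threshold. It was 0 with the deposited log2 values, normexp correction, scan day as a block, slide as a random block, scan day 1 or scan day 2 alone and the methods' t-test, and between 0 and 1 when 1 male was left out. With the replicate number as a block it was 3, while 290 of all 40684 probes were called, against 104 without that block. The count among the 15 maturation-only probes was then 2 (sperm-associated antigen 6 and creatine kinase) in place of 0. That count was 0 in every other setting, and these probes are all outside the study's ration lists. With this replicate block 34 of 36 probes were lower in RR males, with a median of -0.29, against a median of -0.017 over all probes. Numbers above 16 exist only in RR males, so that RR males 17 to 21 do not enter the block's ration difference. The labels give no pairing of same-numbered males. Of 16 such pairs, 6 correlated above 0.1 (median 0.06), which cannot show what else they share. Numbers also went with scan day in NR males, with 1 to 5 on the second day and 6 to 16 on the first. The median of the 36 fold changes ran from -0.01 to 0.10 when 1 male was left out. Scaling to the 75th percentile gave a median of 0.07 over all probes, in place of -0.02.

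The sign of the log2 fold change differed from the reported one in at least 1 of 10 alternatives (9 for a probe dropped by one filter) for 25 of the 36 probes, 18 of them listed for ration and 7 only for maturation. The replicate block, in which 34 of the 36 were lower in RR males, is one of these alternatives. Among the probes listed for ration, sperm-associated antigen 7 kept its sign in 3 of 10, tubulin alpha-1A was as low as -0.33 and tubulin beta-2C as low as -0.48. Of those listed only for maturation, the alpha tubulin family probe gave -0.0219 with scan day as a block, -0.0225 with slide as a random block, -0.11 on scan day 2 and -0.29 with the replicate block. The maturation-only probe of tubulin alpha-2/alpha-4 gave -0.15, tubulin alpha-4A -0.14, the tubulin beta chain -0.16 and dynein light chain 1 -0.32 with the replicate block. On scan day 1, tubulin alpha-4A gave -0.055, the tubulin beta chain -0.0092 and dynein light chain 1 -0.17. Tubulin beta-2C gave 0.0125 with the deposited values, 0.0126 with normexp, 0.0052 with scan day as a block and 0.18 on scan day 2. Dynein light chain roadblock-type 2 gave 0.000607 with 75th percentile scaling and 0.0347 on scan day 2. When 1 male was left out, the alpha tubulin family probe ran from -0.0589 to 0.17 and tubulin beta-2C from -0.0747 to 0.0292. The cause of these changes was not tested.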
